A study of Mus musculus with 2 samples.

Results

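The acetylated chromatin around Gata4, Gata6 and Gata5 was compared between cells of the atrioventricular canal (AVC) and cells of the chambers, both sorted from mouse hearts at embryonic stage E10.5. The regions described are all H3K27ac peaks whose midpoint lay in 1 of 3 mm9 windows, which were chr14:63720001-63980000 for Gata4 (260 kb), chr18:10950001-11200000 for Gata6 (250 kb) and chr2:179980001-180150000 for Gata5 (170 kb). They numbered 100 of the 87572 peaks in the AVC list and 124 of the 67092 peaks in the chambers list, 224 of 154664 in all. The AVC library came from EGFP-positive cells and the chambers library from Katushka-positive cells, EGFP being a green and Katushka a far-red fluorescent protein. Both libraries carry the strain label FVB/N and the same genotype label, Katushka+ EGFP+. There was 1 library per tissue. The regulatory sequences that drive the reporters, and whether embryos were pooled, are not given in the sources used here.

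GATA4, GATA5 and GATA6 are zinc finger transcription factors that bind the DNA sequence after which the family is named. They are expressed in the embryonic heart, where GATA4 and GATA6 act in the myocardium and GATA4 is needed in the endocardium for the atrioventricular cushions from which the valves form. GATA5 is known for its expression in the endocardium. Regulatory DNA of the chicken GATA6 gene drives reporters in the atrioventricular canal of the mouse and later in its conduction system. H3K27ac, the acetylation of lysine 27 of histone H3, marks active promoters and enhancers, and genes of key transcription factors often lie in long clusters of such regions.

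Each peak has a score, the Log(ER) of the peak caller, for which the authors used a threshold of 2. It also has a whole-number signal value, called the value below, which the file headers do not name and which is not scaled between the lists. Scores are set chromosome by chromosome in each list, so a peak's rank on its own chromosome is given beside it. Sequencing depth is unknown, and the absence of a peak from a list means that the caller did not report one, not that acetylation was lacking. Tissues could not be tested against each other, since each has a single library. The 95% intervals of shares are exact (Clopper-Pearson). They reflect counting error alone and are too narrow, because peaks of a window are neighbours and not independent. Gene models of the mm9 build were not used here, so peaks are not assigned to promoters, exons or introns, and tissue identity was not checked on marker genes. In the RefSeq gene order of a later build, Gata4 lies between Neil2 and Blk, Gata6 between Mib1 and Rbbp8, and Gata5 between Rbbp8nl and Slco4a1. Gata6 and Gata5 each overlap a gene named as their opposite strand transcript, Gata6os and Gata5os.

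The 3 loci differed widely in how much acetylated chromatin was called. The Gata4 window held 55 AVC and 75 chambers peaks, the Gata6 window 32 and 35, and the Gata5 window 13 and 14. AVC peaks covered 12.1% of the Gata4 window, 7.92% of the Gata6 window and 3.98% of the Gata5 window. Chambers peaks covered 14.6%, 5.67% and 3.18% of the same windows. The order Gata4, Gata6, Gata5 was thus the same in both tissues.

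The Gata4 window was among the densest stretches of its length in both lists. The genome was cut into 10130 tiles of 260 kb, leaving out those that touch a GATA window. The median tile held 6 AVC and 4 chambers peaks. At least as many AVC peaks as in the Gata4 window were found in 19 tiles (0.188%), and at least as many chambers peaks in 2 tiles (0.0197%). The Gata6 window followed. Of 10533 tiles of 250 kb, 197 (1.87%) held at least its 32 AVC peaks and 124 (1.18%) at least its 35 chambers peaks. For Gata5, 1711 of 15500 tiles of 170 kb (11.0%) held at least 13 AVC peaks and 1073 (6.92%) at least 14 chambers peaks.

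**Figure D1:**
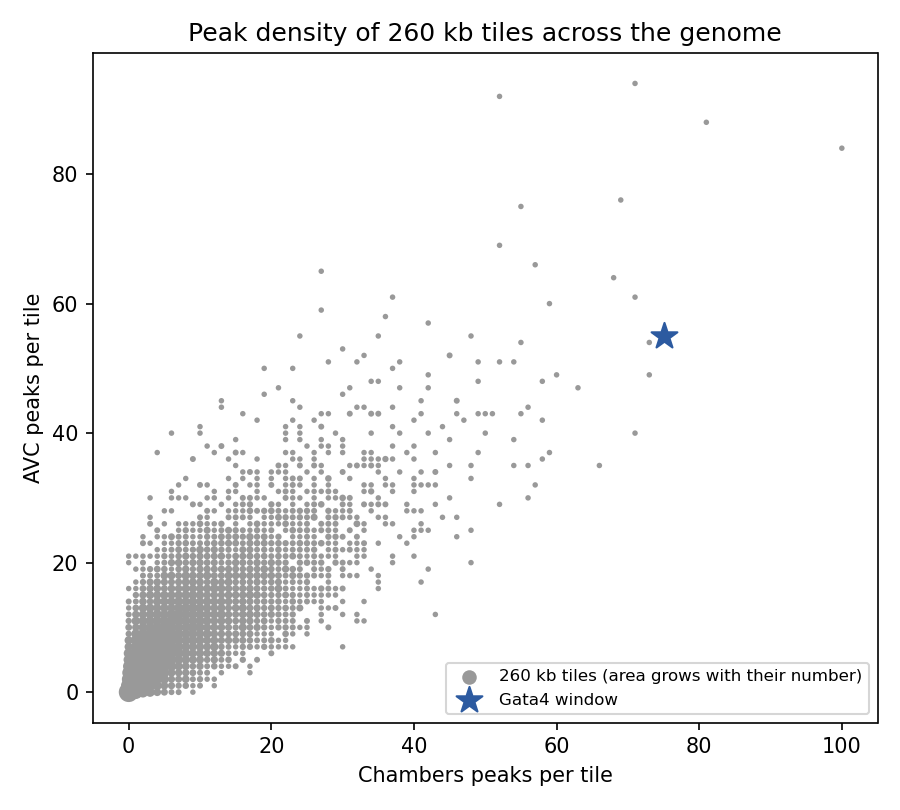
Number of AVC peaks (vertical axis) against chambers peaks (horizontal axis) in 260 kb tiles of the genome, grey, with marker area growing with the number of tiles, and in the Gata4 window, star. The window, with 55 AVC and 75 chambers peaks, lies near the upper right end, where 2 tiles reach or exceed it in both lists.

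Strong peaks were concentrated at Gata4 and Gata6. At Gata4, 18 of 55 AVC peaks (32.7%) had a score of at least 5, against 9.95% of all AVC peaks, and 32 of 75 chambers peaks (42.7%), against 18.1% of all chambers peaks. At Gata6 the counts were 11 of 32 (34.4%) in the AVC and 11 of 35 (31.4%) in the chambers. At Gata5 they were 1 of 13 and 3 of 14, shares of 7.69% and 21.4% that lie near those of the whole lists. Peaks with a score of at least 10 numbered 10 (AVC) and 16 (chambers) at Gata4, 4 and 6 at Gata6, and 1 and 0 at Gata5. In the whole lists 3.64% of AVC and 6.46% of chambers peaks reached that score.

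Most of these strong peaks were also broad, at least 500 bp wide. At Gata4, 8 AVC peaks (14.5%) and 13 chambers peaks (17.3%) were strong and broad, against 0.827% and 3.23% of the whole lists. They were 8 of the 10 AVC and 13 of the 16 chambers peaks with a score of at least 10. Over the whole lists, 724 of 3188 AVC and 2166 of 4333 chambers peaks with such a score were broad. At Gata6 there were 3 and 4 such peaks, and at Gata5 none in either list. The median width of AVC peaks was 513 bp at Gata4, 567.5 bp at Gata6 and 483 bp at Gata5, against 472 bp in the whole list. The median width of chambers peaks was 458 bp, 353 bp and 397 bp, against 325 bp. AVC peaks were thus the wider ones in the whole lists too.

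Within the Gata4 window, AVC peaks were in the minority. They made up 42.3% of its peaks (95% interval 33.7 to 51.3), although they made up 62.2% of the peaks on chromosome 14 and 56.6% of all peaks. At scores of at least 3 the AVC share was 50.2% of all peaks and 40% of those at Gata4 (29.8 to 50.9). The contrast with the whole lists was lost there, while chromosome 14 had 56.6%. It was kept under other settings. With both lists cut by score to equal peak numbers per chromosome, the Gata4 share was 39.0% (30.4 to 48.2), against 50% by construction. With peaks of at least 300 bp it was 46.4% (36.8 to 56.1), against 66.9% of all peaks. With all peaks, the Gata4 interval reached the 50.4% found over 167 tiles of 260 kb with at least 65 peaks, so a lower AVC share than in other dense regions was not shown. The AVC share was 47.8% at Gata6 (35.4 to 60.3), where chromosome 18 had 55.6%, and 48.1% at Gata5 (28.7 to 68.1), where chromosome 2 had 53.0%. Both intervals include the share of their chromosome.

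Acetylated regions were called in both tissues more often at Gata4 than over the whole lists. At Gata4, 38 of 55 AVC peaks overlapped a chambers peak by at least 1 bp (69.1%, 55.2 to 80.9), against 23.2% of all AVC peaks. Of the chambers peaks there, 39 of 75 overlapped an AVC peak (52.0%, 40.2 to 63.7), against 31.6% of all chambers peaks. At Gata6, 16 of 32 AVC peaks (50%, 31.9 to 68.1) and 18 of 35 chambers peaks (51.4%, 33.99 to 68.6) were shared. Both intervals lay above the shares of the whole lists, but not under every setting. At scores of at least 3 the AVC interval (31.5 to 76.9) included the 32.4% of the whole list, and with peaks of at least 300 bp the chambers interval (25.6 to 67.2) included its 32.9%. At Gata5, 5 of 13 AVC peaks (38.5%, 13.9 to 68.4) and 5 of 14 chambers peaks (35.7%, 12.8 to 64.9) were shared, and both intervals include the whole-list shares.

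**Figure D2:**
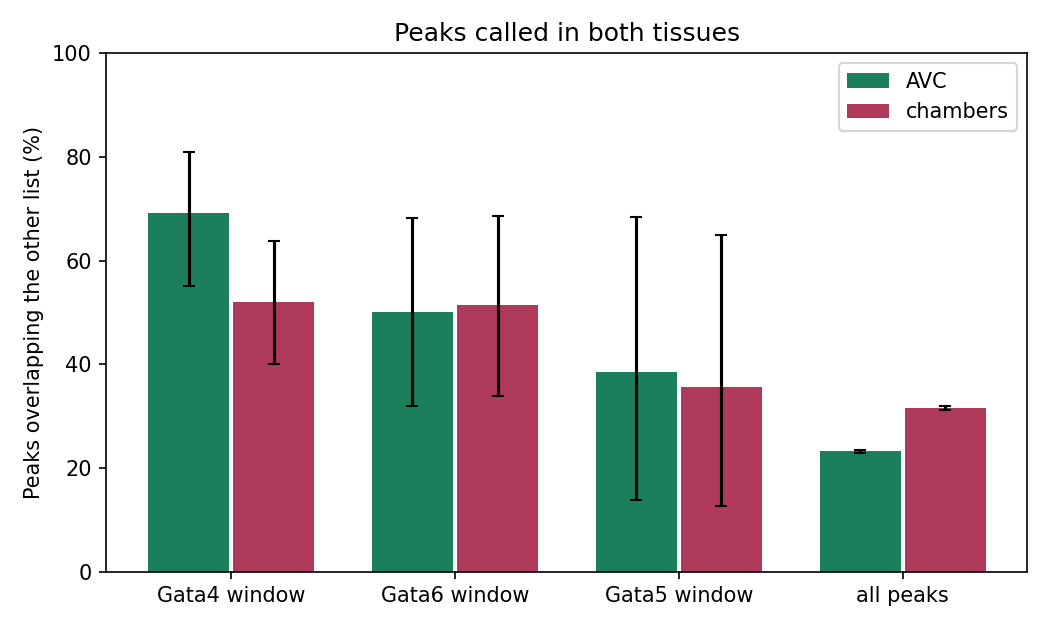
Percentage of peaks that overlap a peak of the other list by at least 1 bp, for AVC and chambers peaks of each window and of the whole lists. Error bars are exact 95% intervals for counting error. At Gata4 69.1% of AVC and 52.0% of chambers peaks were shared, against 23.2% and 31.6% of all peaks.

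The part of peak density and strength in this sharing was not tested. A peak of the other list lay within 1 kb of 44 of 55 AVC peaks (80.0%) and 54 of 75 chambers peaks (72.0%) at Gata4, against 32.9% and 47.5% of all peaks. Bases covered in both lists made up 35.0% of the bases covered in either list at Gata4, 25.2% at Gata6 and 16.5% at Gata5, against 10.6% over the whole lists. Among peaks with a score of at least 5, 18 of 18 AVC and 26 of 32 chambers peaks at Gata4 were shared, against 75.4% and 70.8% of all peaks of that strength. Of these 18 AVC peaks, 15 were covered over at least 50% of their length, and 1 met a chambers peak by only 4 bp. At Gata6 10 of 11 AVC and 8 of 11 chambers peaks of that strength were shared. At a score of at least 10, all 10 AVC and all 16 chambers peaks at Gata4 and all 4 AVC peaks at Gata6 were shared, but 5 of 6 chambers peaks at Gata6. Over the whole lists 98.1% and 92.1% of peaks at that score were shared, so sharing of the strongest peaks is common everywhere.

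Most strong Gata4 peaks lay in a pair of neighbouring clusters. Peaks of both lists were joined into domains where the gap between neighbours was at most 5 kb. The larger domain of this pair, chr14:63846423-63874241, was 27.8 kb long and held 21 AVC and 27 chambers peaks, which covered 41.9% and 57.2% of it. The next, chr14:63879413-63892280, was 12.9 kb long and held 11 AVC and 16 chambers peaks, which covered 56.3% and 68.3% of it. These domains held 9 of the 10 AVC and 15 of the 16 chambers peaks with a score of at least 10.

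Set against all domains joined in the same way within a list, the larger cluster ranked high in both. Its AVC part, chr14:63851009-63871830 with 21 peaks, ranked 29 by number of peaks and 171 by length among 57689 AVC domains. Its chambers part, with 27 peaks, ranked 15 by number of peaks and 54 by length among 40484 chambers domains. The median domain of either list was a single peak.

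**Figure D3:**
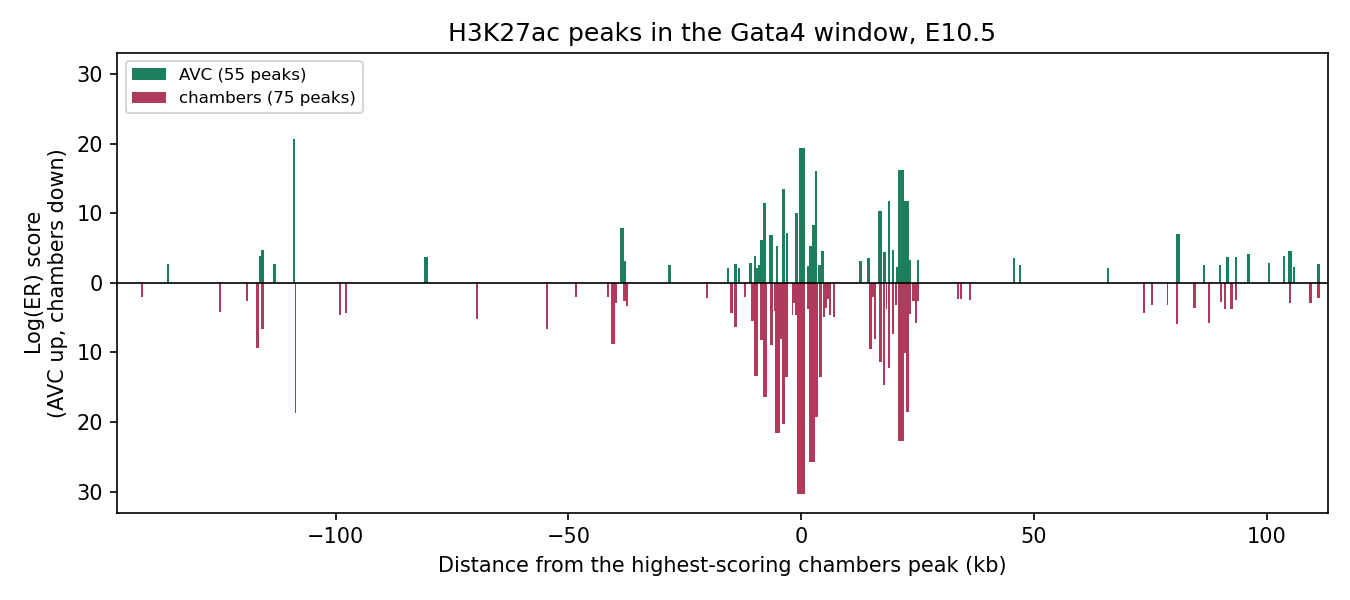
Peaks of the Gata4 window by distance from the centre of the highest-scoring chambers peak (kb), with Log(ER) scores of the 55 AVC peaks drawn upward and those of the 75 chambers peaks drawn downward. Bars span each peak, narrower ones being drawn 400 bp wide. The strong peaks of both tissues stand in the same pair of clusters, and the tallest chambers bar reaches 30.37.

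The strongest peak of the Gata4 clusters in both tissues was a single broad region. In the AVC it was called at chr14:63866553-63867844, 1292 bp wide, with a value of 202, a score of 19.41 and rank 73 among the peaks of chromosome 14. In the chambers it was called at chr14:63866024-63867824, 1801 bp wide, with a value of 355, a score of 30.37 and rank 17. The chambers peak also overlapped a second AVC peak, chr14:63865559-63866280, with a value of 78. The AVC list thus divides into 2 peaks a stretch that the chambers list holds as 1.

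The next strong region, within 1 kb of it, was higher in the chambers list by value and rank. There the chambers list had chr14:63868521-63869859, with a value of 220, a score of 25.78 and rank 45. The AVC list had 2 peaks within it, chr14:63868570-63869188 with a value of 49 and a score of 5.24, and chr14:63869206-63869855 with a value of 68 and a score of 8.33. Their ranks on chromosome 14 were 374 and 200 in the AVC list. If the value counts reads, which the headers do not say, the AVC value for the stretch would be the sum of both, 117, which is still below the chambers value of 220.

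Beside it lay the 1 pair of the larger cluster whose AVC value was the higher one. The AVC peak chr14:63869923-63870311 had a value of 136 and a score of 15.99, and the chambers peak chr14:63869917-63870482 had a value of 129 and a score of 19.32. The values nearly matched although the chambers peak was wider, at 566 bp against 389 bp.

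Toward lower coordinates the cluster held a further strong pair of chambers peaks. The AVC peak chr14:63861467-63861873 had a value of 49 and a score of 5.24, and its chambers counterpart chr14:63861356-63862299 a value of 152 and a score of 21.56. The AVC peak chr14:63862807-63863549 had a value of 103 and a score of 13.41, and its chambers counterpart chr14:63862802-63863532 a value of 138 and a score of 20.25. The borders of this last pair lay within a few bases of each other, whereas the first AVC peak was 407 bp wide and its counterpart 944 bp.

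In the second cluster the AVC-to-chambers ratio of values ran from 0.43 to 1.25 over 10 pairs, against 0.27 to 1.05 over the 14 pairs of the larger cluster, so the ranges overlap. Its strongest region was chr14:63887630-63889068 in the AVC, with a value of 139 and a score of 16.16, and chr14:63887640-63888955 in the chambers, with a value of 167 and a score of 22.67. The AVC peak chr14:63889089-63890005 had a value of 89, and its chambers counterpart chr14:63889428-63890158 one of 125. The AVC peak chr14:63885532-63886104, also with a value of 89, faced the chambers peak chr14:63885555-63886060 with one of 84. The lowest ratio belonged to chr14:63884545-63885055 in the AVC and chr14:63884436-63884964 in the chambers, with values of 43 and 99. The ranks of the strongest region on chromosome 14 were 96 in the AVC list and 66 in the chambers list.

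Values of overlapping peaks were lower in the AVC at most places of these clusters. To compare them, each peak was paired with the peak of the other list that it overlapped most, where the choice was mutual. Over the whole series the median AVC-to-chambers ratio of the unscaled values was 1.11, and 39.1% of 19612 pairs had a lower AVC value. At Gata4 the median over 33 pairs was 0.83, and 22 pairs had a lower AVC value. In the larger cluster 13 of 14 pairs did, with a median ratio of 0.68, and in the second cluster 7 of 10, with a median of 0.84. A pair keeps 1 peak per list, so ratios depend on how a stretch was divided. The lowest ratio, 0.27, set an AVC value of 25 against 91, where the 2 AVC peaks met sum to 64. Another set 29 against 93, where they sum to 73. Division also went the other way: the AVC peak of value 103, paired with 138, met 2 chambers peaks that sum to 231.

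The ratio also moved with peak width over the whole series. Where both peaks were at least 300 bp wide, 53.4% of 11910 pairs had a lower AVC value and the median ratio was 0.95. At Gata4 20 of 27 such pairs did, with a median of 0.79, and on chromosome 14 56.6% of 505 pairs did, with a median of 0.93. With both scores at least 5 as well, the counts were 10 of 14 at Gata4, with a median of 0.81. The whole series had 55.1% in that class, and chromosome 14 had 64.8% of 91 pairs, with a median of 0.86. Among the 8 Gata4 pairs with both scores at least 10, 5 had a lower AVC value and the median was 0.81, against 1.08 over 420 such pairs of the series and 0.84 over 27 such pairs of chromosome 14. The Gata4 median is thus close to that of chromosome 14, of whose 27 pairs the Gata4 window gave 8.

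On the high-coordinate side of the Gata4 window most pairs had the higher value in the AVC, as over the whole series. The domain chr14:63940324-63978288 held 11 AVC and 13 chambers peaks, with highest scores of 7.0 and 5.89, and these covered 15.5% and 14.5% of it. Of its 5 pairs, 4 had a higher AVC value and 1 had equal values, with a median ratio of 1.25, against 1.11 over the whole series. The chambers peaks of these pairs included narrow ones of 207, 175 and 284 bp, and the ratio moved with width over the whole series. In the AVC list the peaks of this domain went on past the window to 63989979. They formed a domain of 42.5 kb with 17 peaks, the 16th longest of the AVC list.

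**Figure D4:**
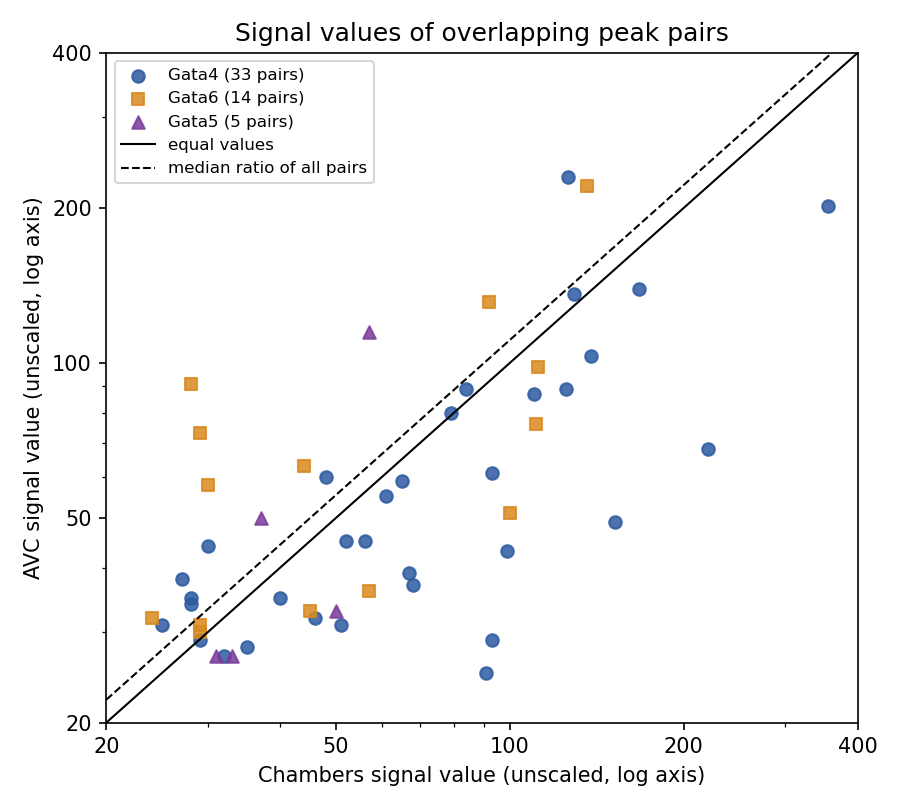
AVC value against chambers value for the overlapping pairs of each window, both unscaled and on log axes, with a solid line at equal values and a dashed line at the median ratio of all pairs, 1.11. Of the Gata4 pairs, 22 of 33 lie below the solid line, and 5 of 14 Gata6 pairs do.

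The highest AVC score of the Gata4 window lay outside the clusters, at a peak whose chambers counterpart was narrow. It was chr14:63757827-63758234, 408 bp wide, with a value of 230, a score of 20.60 and rank 66. The chambers peak within it, chr14:63758077-63758223, was 147 bp wide, with a value of 126 and a score of 18.76. Chambers peaks with a score of at least 10 and under 300 bp made up 2.71% of the whole chambers list. They were 1819 of its 4333 peaks with such a score, so narrow calls are common among strong peaks. This was the only one of the Gata4 window. Its ratio of 1.83 was the highest of the 33 Gata4 pairs.

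At Gata4 all 18 AVC peaks with a score of at least 5 overlapped a chambers peak by at least 1 bp, against 75.4% of all AVC peaks of that strength. Of the 32 chambers peaks of that strength there, 26 overlapped an AVC peak (81.25%, 63.6 to 92.8). This interval includes the 70.8% of the whole chambers list. The remaining 6 chambers peaks had no such overlap. The highest of them, chr14:63825995-63826852, was 858 bp wide, with a value of 64 and a score of 8.76, and had no AVC peak within 1 kb. An AVC peak with a score of 7.83 and a value of 65, chr14:63827974-63828748, followed it and touched another chambers peak by 4 of its 775 bases, so that it counts as shared by the 1 bp rule alone. Of the others, chr14:63862375-63862795 (score 8.03) and chr14:63882513-63883070 (score 8.03) lay inside the clusters with an AVC peak within 1 kb. The peak chr14:63954417-63954820 (score 5.72) lay in the high-coordinate domain, also with an AVC peak within 1 kb. The peaks chr14:63812001-63812600 (score 6.60) and chr14:63797050-63797567 (score 5.20) stood alone on the low-coordinate side.

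Counted in steps of 10 kb, the Gata4 clusters held more chambers peaks in most steps. The 10 kb from 63880001 had 8 AVC and 12 chambers peaks, the largest difference of the window, and those from 63860001 had 9 and 12. The 10 kb from 63850001, at the edge of the larger cluster, had 9 AVC and 7 chambers peaks. Over the 26 steps of the window, AVC peaks were more numerous in 9 and chambers peaks in 14.

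The Gata6 window held 1 main cluster. The domain chr18:11039895-11065024 was 25.1 kb long and held 12 AVC and 19 chambers peaks, which covered 32.5% and 34.3% of it. Bases covered in both lists made up 44.8% of the bases covered in either. It held 3 of the 4 AVC peaks and all 6 chambers peaks of the window with a score of at least 10. Within the lists, its AVC part of 12 peaks ranked 121 by number of peaks among 57689 domains, and its chambers part of 19 peaks ranked 47 among 40484. The 10 kb from 11050001, inside it, had 8 AVC and 11 chambers peaks, the most of the window in both lists.

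The strongest Gata6 peak of both tissues was at the same place, but its stretch was divided in the chambers list. In the AVC it was chr18:11055156-11057126, 1971 bp wide, with a value of 221, a score of 17.44 and rank 42 on chromosome 18. In the chambers it was chr18:11055129-11056068, 940 bp wide, with a value of 136, a score of 18.79 and rank 52. The AVC peak also covered 2 further chambers peaks, chr18:11056118-11056362 with a value of 24 and chr18:11056364-11056755 with a value of 43 and a score of 4.80. The chambers list thus divides into 3 peaks a stretch that the AVC list holds as 1. Together they covered 1550 of the 1971 bases of the AVC peak, and their values sum to 203, against 221. The starts nearly coincided, and the AVC call ended beyond the last of these chambers peaks.

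Other strong Gata6 regions were alike in position. The AVC peak chr18:11050354-11051138 had a value of 98 and a score of 11.22, and the chambers peak chr18:11050354-11051167 a value of 112 and a score of 15.97. Next to it the AVC peak chr18:11051175-11051411 had a value of 131 and a score of 13.40, and the chambers peak chr18:11051175-11051650 a value of 92 and a score of 13.00. These pairs began at the same base in both lists, and the order of the values was opposite in them. The AVC peak of the second pair was 237 bp wide, the only AVC peak of the 3 windows with a score of at least 10 that was narrower than 300 bp.

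Other chambers peaks of the Gata6 cluster had higher values than their AVC counterparts. The AVC peak chr18:11053652-11054127 had a value of 76 and a score of 8.56, against 111 and 15.80 for the chambers peak chr18:11053401-11054141. The AVC peak chr18:11048557-11049045 had a value of 51 and a score of 5.02, against 100 and 14.23 for the chambers peak chr18:11048555-11049028. Over the 10 pairs of the cluster the median ratio was 1.05, and 4 pairs had a lower AVC value.

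The Gata6 cluster held the strongest regions of these loci called in 1 list. The AVC peak chr18:11059260-11060295, 1036 bp wide, had a value of 79, a score of 9.02 and rank 117 on chromosome 18, and overlapped no chambers peak. It was the only AVC peak of the 3 windows with a score of at least 5 and no overlap. The chambers peak chr18:11052591-11053182, 592 bp wide, had a value of 83, a score of 11.60 and rank 125, and overlapped no AVC peak. It was the only peak of the 3 windows with a score of at least 10 and no overlap. Both had a peak of the other list within 1 kb, and both lay inside the domain that the lists share.

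A second Gata6 group, further along the chromosome, had higher values in the AVC at its pairs. The domain chr18:11089893-11103549 held 6 AVC and 5 chambers peaks, with highest scores of 10.42 and 5.95. Its main AVC peak, chr18:11096919-11097887, was 969 bp wide, with a value of 91 and rank 102 on chromosome 18. Within it the chambers list had chr18:11097240-11097541, with a value of 50 and rank 346, and chr18:11097550-11097884, with a value of 28. The AVC peak before it, chr18:11096476-11096906, had a value of 58 and a score of 5.99, and the chambers peak there, chr18:11096538-11096789, a value of 30 and a score of 2.82. All 3 pairs of this domain had the higher value in the AVC, as 11422 of 19612 pairs of the whole series did. The main AVC peak was paired with the chambers peak of value 28 alone. If the value counts reads, the chambers value for that stretch would be the sum of both, 78, nearer to 91. The chambers peaks of the 3 pairs were 256, 252 and 335 bp wide, narrower than their AVC peaks. The ratio moved with width over the whole series.

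Further out the Gata6 window held chambers peaks without AVC overlap. The peak chr18:11145151-11145652 had a value of 73 and a score of 9.85, and the nearest AVC peaks, with scores of up to 3.19, lay beyond its edge, the closer of them within 1 kb. The peak chr18:11196427-11196873 had a value of 49 and a score of 5.78, with no AVC peak within 1 kb. Over all 14 Gata6 pairs the median ratio was 1.20 and 5 had a lower AVC value. With both peaks at least 300 bp wide it was 0.88 over 9 pairs, so the side of 1 on which the Gata6 median fell depended on narrow peaks.

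**Figure D5:**
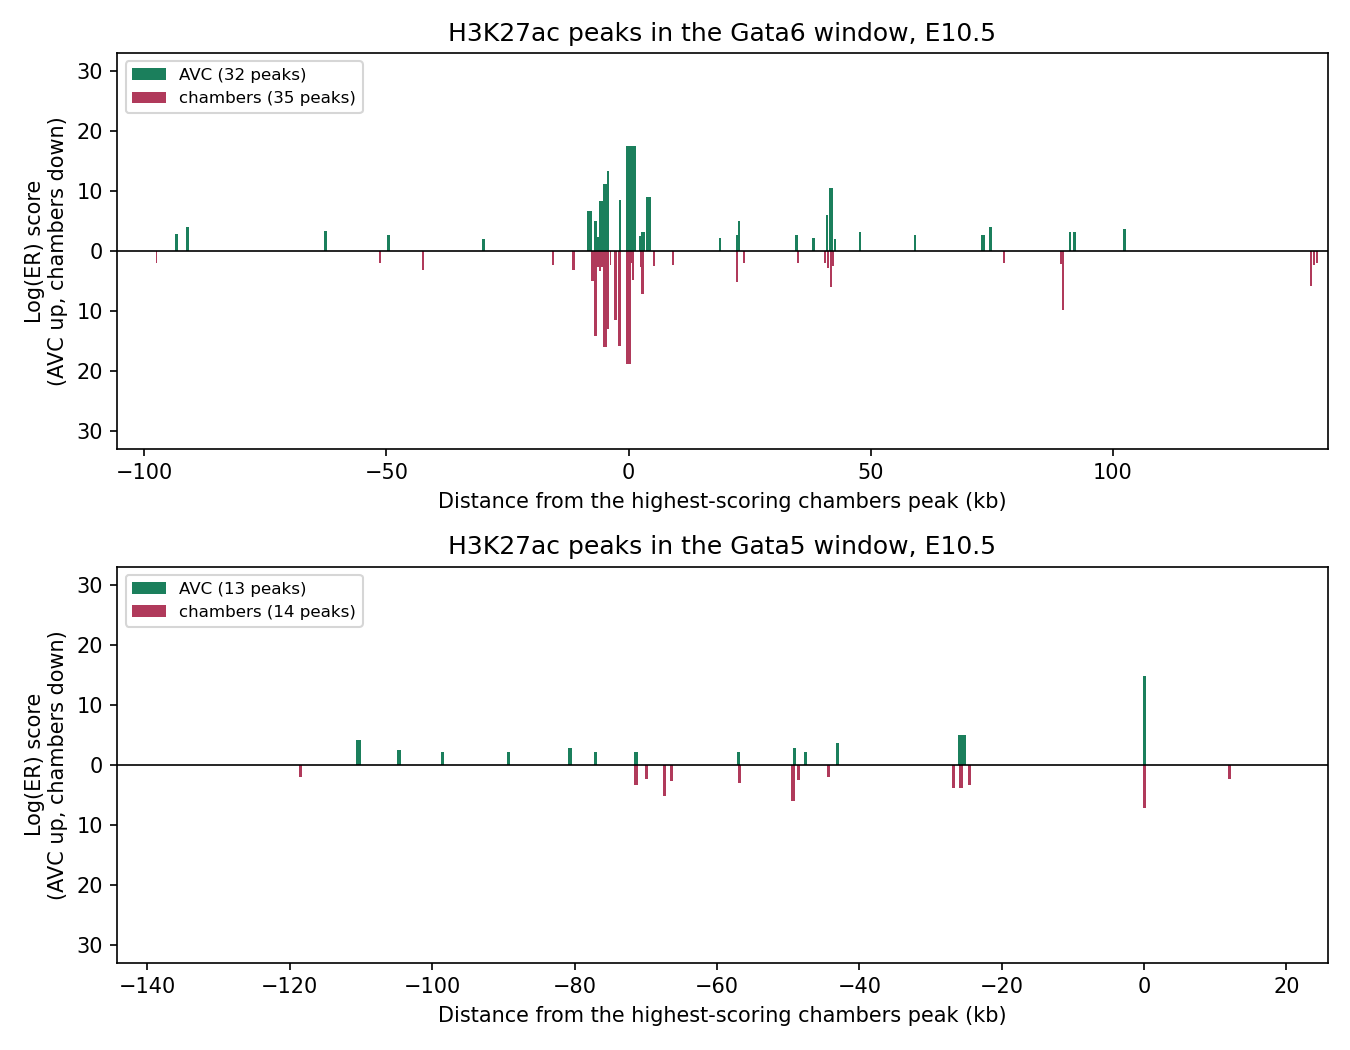
Peaks of the Gata6 window (upper panel) and the Gata5 window (lower panel) by distance from the centre of the highest-scoring chambers peak (kb), with Log(ER) scores of AVC peaks drawn upward and of chambers peaks downward. Bars narrower than 400 bp are drawn 400 bp wide. At Gata6 a cluster surrounds the strongest peaks, with scores of 17.44 in the AVC and 18.79 in the chambers, and at Gata5 weak peaks are scattered with no cluster of that kind.

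The Gata5 window held scattered weak peaks in both tissues. Its 13 AVC peaks had a median score of 2.51 and its 14 chambers peaks one of 3.19, near the 2.62 and 2.81 of the whole lists. The median gap between neighbouring peaks was 6567 bp in the AVC and 3830 bp in the chambers, against 876.5 bp and 422.5 bp at Gata4. No domain joined more than 3 AVC or 4 chambers peaks.

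The highest Gata5 scores belonged to a region that was under 300 bp wide in the chambers list alone, as with the highest AVC score at Gata4. It was chr2:180124082-180124422 in the AVC, 341 bp wide, with a value of 115, a score of 14.84 and rank 155 on chromosome 2, and chr2:180124150-180124318 in the chambers, 169 bp wide, with a value of 57, a score of 7.24 and rank 488. Without it, the highest scores of the window were 4.94 in the AVC and 6.06 in the chambers.

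The remaining Gata5 regions were weak, and those named differed between the tissues in small values. The chambers peak chr2:180074647-180075196 had a value of 50, a score of 6.06 and rank 648, and overlapped an AVC peak with a value of 33 and a score of 2.74. The AVC peak chr2:180098155-180099200 was 1046 bp wide, with a value of 50, a score of 4.94 and rank 602, and the chambers peak within it had a value of 37 and a score of 3.94. Another chambers peak with the same score, chr2:180097292-180097721, lay within 1 kb of it without overlap. The chambers peak chr2:180056677-180057040, with a value of 45 and a score of 5.22, had no AVC peak within 1 kb.

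Of the 13 AVC peaks of the Gata5 window, 8 (61.5%) were without overlap, against 76.8% of all AVC peaks. The highest were chr2:180013596-180014243 with a score of 4.13, chr2:180043346-180043916 with 2.86, and chr2:180080908-180081407 with 3.60. Between 180010001 and 180050000 the AVC list had 6 peaks and the chambers list none. All 6 had scores under 5. In the next 10 kb, from 180050001, there was 1 AVC peak and 4 chambers peaks, the largest difference in the chambers' favour.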

How the data were processed

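H3K27ac ChIP-seq was made from 2 libraries, 1 per tissue. Fixed sorted cells were immunoprecipitated with the antibody ab4729 and the DNA was sequenced with SOLiD chemistry, per the labels' protocols. Bowtie, SAMtools and the build mm9 appear in the submitters' processing notes. Per the file headers, peaks were called per library with OccuPeak 1.3 and a Log(ER) threshold of 2. The deposited score is that Log(ER), of unstated log base, and the deposited signal value is a whole number of unstated meaning (reads or pile-up height), unscaled between lists. Starts, which count from 0 in the files, were raised by 1.

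Overlap, mutual pairs, domains (gaps of at most 5 kb), 10 kb bins and genome tiles were computed with Python 3.11.15, numpy 2.4.6, pandas 2.3.3 and scipy 1.17.1, and overlap counts were checked against bedtools 2.31.1 and tested on simulated data. Named peaks are the 5 of highest score per window and list, and unshared peaks with a score of at least 5; the other peaks printed were named after their values were seen. Members and lists were chosen with earlier results of these data known. Sequences of the peaks were not used here.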

Additional observations from a re-analysis of the deposited data

How the results depend on the processing

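Settings were changed 1 at a time, giving 63 values, of which 53 stayed within the main value's 95% interval (shares) or within 1.5 times (ratios and numbers of domains). All AVC shares of peaks did so, although the share over all peaks to which they are compared was 50.2% at scores of at least 3 and 66.9% with peaks of at least 300 bp. Where peaks are few the intervals are wide, so staying within them shows little. At Gata5 the AVC share ran from 33.3% to 56.5% and still lay within 28.7 to 68.1. With at least 50% of a peak required to be covered, 54.5% of Gata4 AVC peaks were shared, against 17.3% of all AVC peaks. With neighbours within 1 kb counted, 72.0% of Gata4 chambers peaks were, against 47.5% of all chambers peaks. At scores of at least 3 in both lists, 68.8% of Gata6 chambers peaks were shared, against 34.3% of all chambers peaks. The Gata5 median ratio at those scores was 1.68, on 2 pairs, against 1.20 over the series. Joining gaps of 2 kb gave 19 AVC domains at Gata4 in place of 10. The widest gap tried gave 6 chambers domains at Gata4, 7 AVC and 6 chambers domains at Gata6, and 4 of each at Gata5, since wider gaps join more peaks by construction. The highest value per joined region, added after seeing the data, gave a median ratio of 0.80 at Gata4 and 1.33 at Gata6, against 1.10 over the series. The unknown depth and the 1 library per tissue limit what a missing peak or a ratio shows. No paired analysis was possible because each tissue has 1 sample.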
